A study of Mus musculus with 13 samples.

Results

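The choroid plexus is the tissue that makes cerebrospinal fluid inside the brain ventricles, and the genes described here are known as markers of its epithelium. RNA from a whole hemisphere does not show which cells held their transcripts. The set holds 10 genes, Ttr, Kl, Clic6, Folr1, Kcne2, Kcnj13, Slc4a5, Aqp1, Sostdc1 and Otx2, taken by name from a table of RSEM estimated counts with 48795 genes in which all 10 were found. As background, the plexus is a folded sheet of epithelium around fenestrated vessels, and its cells both pump ions and water into the ventricle and form the barrier between blood and cerebrospinal fluid. Transthyretin, the product of Ttr, is the protein for which this epithelium is best known: in the brain its messenger RNA is concentrated there.

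RNA was sequenced from the right brain hemisphere of 13 mice at postnatal day 11, with the olfactory bulb and cerebellum removed, and each library came from 1 mouse. The 5 mice called nlsYAP5SA carried NexCre +/- with YAP5SAnls +/-, a transgene for a nuclear and constitutively active YAP1 that is switched on by Cre. The 5 controls were NexCre -/- YAP5SAnls +/-, so they held the same transgene without the Cre, and 3 further mice were C57BL/6 wild types; the strain background of all was given as C57BL/6J. NEX-Cre acts in the Neurod6 lineage of neuronal precursors, and whether it also acted in the choroid plexus epithelium was not tested. The control and nlsYAP5SA comparison asks what differed in the hemisphere with the activated YAP1, and the C57BL/6 mice show the level in animals without either allele. The paper reports multiple tumours beside the ventricles of nlsYAP5SA mice and a hippocampus that did not develop normally. A hemisphere of these mice can thus hold tumour tissue, and its part in the differences given below was not tested. NEX-Cre itself, placed at the Neurod6 locus, was a further difference between control and nlsYAP5SA mice. No group carried the Cre alone, so its part cannot be told apart from that of the activated YAP1. Controls and nlsYAP5SA mice were littermates and the C57BL/6 mice came from other litters, so both comparisons with C57BL/6 also differed in litter. Both sexes were used, but the labels gave neither the sex of a mouse nor the mating it came from. Y-linked genes, which only males carry, were above 1 CPM in 5 of 5 controls, 2 of 5 nlsYAP5SA and 2 of 3 C57BL/6 libraries. By these genes all 5 controls were male, so sex was not balanced between control and nlsYAP5SA mice.

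The libraries held between 20871566 and 25524349 estimated counts. Controls ranged from 21380744 to 25524349, nlsYAP5SA from 20871566 to 23586887 and C57BL/6 from 21541836 to 24392197. Levels are given as CPM, the count scaled to the library total and by the TMM factors of edgeR, and at this depth the rarest of the 10 genes, Kcne2, rested on 0 to 34 estimated counts per library.

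The 10 genes lie on 8 chromosomes of the mouse genome (GRCm38), so most are not neighbours. Ttr is at chr18:20665280-20674321 (ENSMUSG00000061808), Folr1 at chr7:101858331-101870788 (ENSMUSG00000001827), Kl at chr5:150952607-150993817 (ENSMUSG00000058488), Sostdc1 at chr12:36314139-36318452 (ENSMUSG00000036169) and Otx2 at chr14:48657677-48673819 (ENSMUSG00000021848). Kcne2 and Clic6 share chromosome 16, at chr16:92292389-92298129 (ENSMUSG00000039672) and chr16:92485736-92541243 (ENSMUSG00000022949). Aqp1 and Slc4a5 share chromosome 6 at distant places, chr6:55336432-55348555 (ENSMUSG00000004655) and chr6:83219828-83304945 (ENSMUSG00000068323), and Kcnj13 is at chr1:87386363-87394729 (ENSMUSG00000079436).

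Neurod6, the gene at whose locus NEX-Cre was placed, was read first because it bears on the genotype labels. It stood at 92.3, 110.0, 93.9, 98.5 and 91.5 CPM in controls 1 to 5, at 55.2, 38.9, 48.1, 56.8 and 47.2 CPM in nlsYAP5SA 1 to 5, and at 102.5, 92.5 and 88.0 CPM in C57BL/6 1 to 3. All 5 nlsYAP5SA libraries were below every control and every C57BL/6 library, and the controls overlapped the C57BL/6 mice, so no library went against its label by this gene. The log2 fold change of nlsYAP5SA over control was -0.98 (SE 0.09, n = 5 and 5, edgeR adjusted p = 2.65e-05).

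Transthyretin, the carrier of thyroid hormone and of the retinol-binding protein that the plexus secretes into the cerebrospinal fluid, differed most among the libraries. In controls 1 to 5 Ttr was at 217, 0.822, 1.25, 2.14 and 129 CPM. In nlsYAP5SA 1 to 5 it was at 258, 276, 138, 0.783 and 55.2 CPM, and in C57BL/6 1 to 3 at 1.52, 158 and 239 CPM. Controls 2, 3 and 4, nlsYAP5SA 4 and C57BL/6 1 were low and the other 8 libraries high, and each of the 3 groups held libraries of both kinds, so the groups overlapped. In RNA from a whole hemisphere, fewer cells of a type and less RNA per cell cannot be told apart, and the labels do not say how much choroid plexus each dissected hemisphere kept. The 5 low libraries held between 18 and 51 estimated counts of Ttr and the 8 high ones between 1179 and 5930, and the highest level was 352 times the lowest. On the log2 scale the empty stretch between the low and the high libraries measured 4.40 of a whole range of 7.75, or 56.8%.

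**Figure D1:**
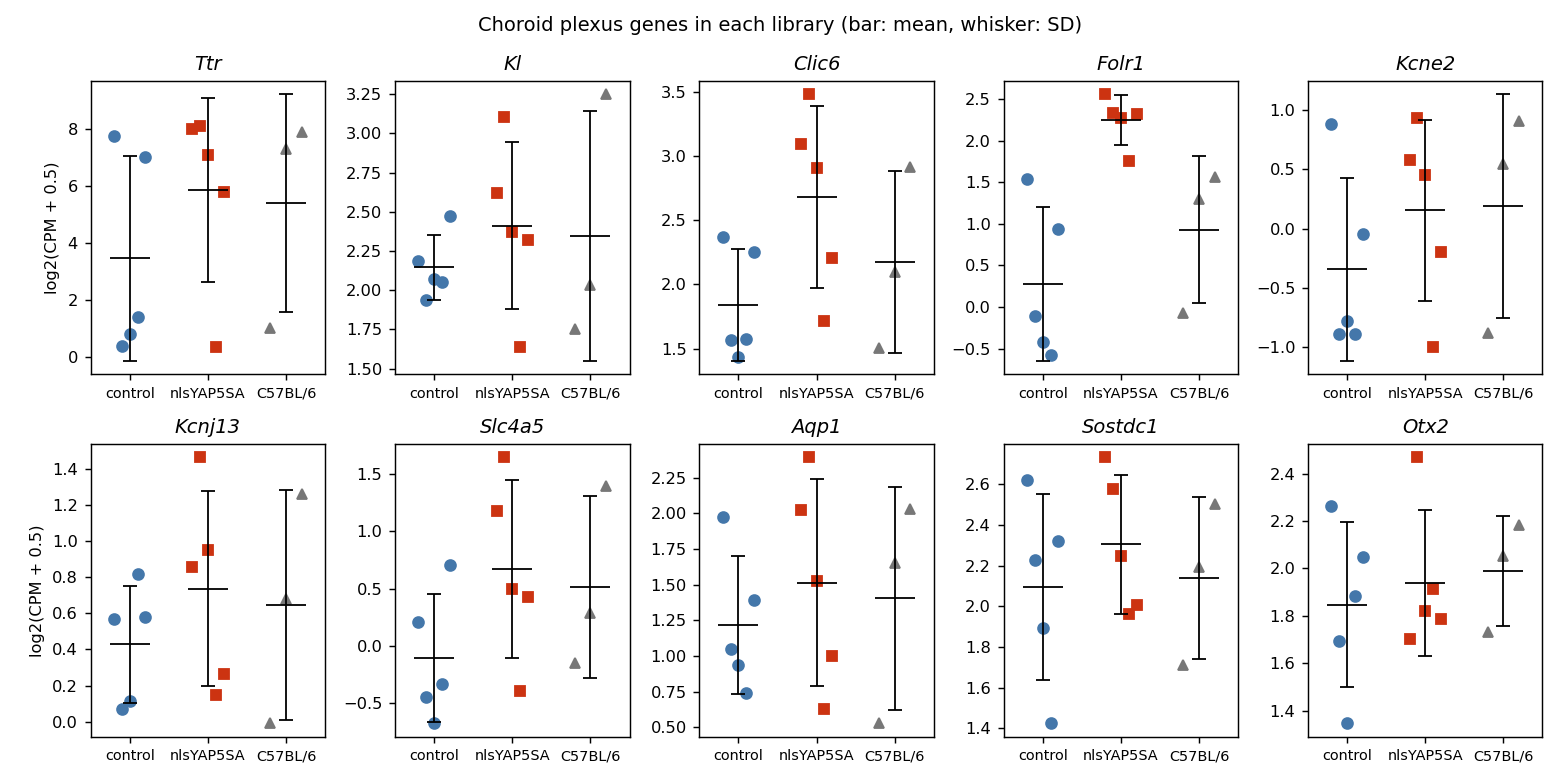
Level of each of the 10 choroid plexus genes in the 13 libraries, as log2(CPM + 0.5) on the vertical axis, by group on the horizontal axis, with 1 point per library and the mean and SD of each group. The points of Ttr form a low set of 5 libraries and a high set of 8 with all 3 groups in both, and Folr1 is the gene whose 5 nlsYAP5SA points lie above all controls and all C57BL/6 mice.

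Clic6, a member of the chloride intracellular channel family, was lowest in the same 5 libraries. It was at 4.66, 2.47, 2.21, 2.48 and 4.25 CPM in controls 1 to 5, at 8.05, 10.6, 6.98, 2.78 and 4.12 CPM in nlsYAP5SA 1 to 5, and at 2.33, 3.79 and 7.03 CPM in C57BL/6 1 to 3. Every library low in Ttr was at 2.78 CPM or less and every other library at 3.79 CPM or more, and the groups overlapped.

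Kcne2, a beta subunit of potassium channels, showed the same split close to the limit of detection. Its level was 1.35, 0.0391, 0.0834, 0.0420 and 0.472 CPM in controls 1 to 5, 0.994, 1.41, 0.867, 0 and 0.375 CPM in nlsYAP5SA 1 to 5, and 0.0448, 0.959 and 1.37 CPM in C57BL/6 1 to 3. The libraries low in Ttr held 0 to 2 estimated counts of Kcne2 and the others 8 to 34. With 0 counts, nlsYAP5SA 4 allows up to 3 counts, so absence of the transcript was not shown there.

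Slc4a5, a sodium bicarbonate cotransporter, was the third gene of this kind. Controls 1 to 5 had 0.654, 0.235, 0.125, 0.294 and 1.13 CPM, nlsYAP5SA 1 to 5 had 1.76, 2.64, 0.910, 0.261 and 0.843 CPM, and C57BL/6 1 to 3 had 0.404, 0.719 and 2.14 CPM. The 5 libraries low in Ttr were again the 5 lowest, at 0.404 CPM or less against 0.654 CPM or more, and the groups overlapped.

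The sharing of the lowest libraries was common in the set and uncommon over all genes. Of the 9 genes other than Ttr, 3 (Clic6, Kcne2 and Slc4a5) had exactly these 5 libraries as their lowest, and 5 more (Kl, Folr1, Kcnj13, Aqp1 and Sostdc1) had 4 of the 5 among their lowest 5. Otx2 shared 3. Over the 16943 genes kept by the filter on low counts, 22 (0.130%, Ttr counted) shared all 5, 475 (2.80%) at least 4 and 3762 (22.2%) at least 3. Of 36 further genes known from the epithelium, described below, 2 shared all 5 and 12 more shared 4. These counts describe the 13 libraries and were given no test, and the listed genes were chosen with earlier results of these data known. Summed over the 9 genes, the level was 27.5, 15.5, 13.6, 14.4 and 23.6 CPM in controls 1 to 5, 35.6, 44.8, 28.9, 16.8 and 23.0 CPM in nlsYAP5SA 1 to 5, and 13.1, 22.5 and 36.7 CPM in C57BL/6 1 to 3. The libraries low in Ttr thus lay between 13.1 and 16.8 CPM and the others between 22.5 and 44.8 CPM, with no overlap, a far narrower span than that of Ttr.

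Of the other 6 genes Folr1 ranged widely, with a highest level 32.0 times its lowest, and the remaining 5 varied less. Aqp1, the water channel of the apical membrane, ran from 0.942 to 4.76 CPM, a ratio of 5.05. Kcnj13, an inward rectifier potassium channel, ran from 0.4932 to 2.26 CPM with a ratio of 4.58. Kl, the co-receptor for the hormone FGF23, ran from 2.61 to 9.003 CPM with a ratio of 3.45. In Aqp1 and Kl the exceptions to the shared order were small: in Aqp1 nlsYAP5SA 5 stood at 1.499 CPM, just under control 2 at 1.57 CPM, and in Kl C57BL/6 2 stood at 3.59 CPM, under controls 3 and 4 at 3.71 and 3.65 CPM. In Kcnj13 the exception was control 4, low in Ttr but at 1.26 CPM above 4 of the 8 libraries high in Ttr. Sostdc1, a secreted antagonist of BMP and Wnt signals, ran from 2.18 to 6.15 CPM, a ratio of 2.82. Otx2, the homeodomain factor that specifies and maintains the plexus epithelium, varied least, from 2.04 to 5.04 CPM with a ratio of 2.47. In the libraries low in Ttr it still reached 3.26 CPM, where Ttr was at 2.14 CPM or less, and which cells held it was not tested.

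Folr1, the folate receptor alpha that carries folate into the cerebrospinal fluid, kept to a pattern of its own. Controls 1 to 5 had 2.41, 0.431, 0.250, 0.168 and 1.42 CPM, nlsYAP5SA 1 to 5 had 5.38, 4.52, 4.33, 2.87 and 4.50 CPM, and C57BL/6 1 to 3 had 0.448, 1.96 and 2.46 CPM. All 5 nlsYAP5SA libraries were above all controls and all C57BL/6 libraries, while within each group the libraries low in Ttr were also the lowest in Folr1. Library nlsYAP5SA 4 showed both features: it had the lowest Ttr of all 13 libraries, yet its Folr1 exceeded that of controls 1 and 5 and of C57BL/6 2 and 3, whose Ttr was between 129 and 239 CPM.

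Scaled by the length of the exons, Ttr was the most abundant of the 10 by far in the libraries where it was high. Its mean was 303 TPM with an SD of 300.4 (n = 13), a spread as wide as the mean. Sostdc1 followed with a mean of 7.36 ± 2.27 TPM (SD, n = 13), then Clic6 with 3.84 ± 2.29 TPM, Folr1 with 3.28 ± 2.59 TPM, Aqp1 with 2.78 ± 1.53 TPM and Kcnj13 with 2.72 ± 1.47 TPM. Otx2 was at 2.47 ± 0.618 TPM, Kl at 1.59 ± 0.743 TPM, Kcne2 at 1.09 ± 1.02 TPM and Slc4a5 at 0.514 ± 0.462 TPM. From Clic6 to Otx2 neighbours in this order differed by less than the larger of their SDs, and so did neighbours from Kl to Slc4a5. The means pool all groups, and Folr1 was higher in every nlsYAP5SA library than in any other, so its place may differ within a group.

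How closely the genes tracked Ttr could be tested only inside the 8 libraries above the gap, because the 13 libraries fell into separate clusters and the 5 below it were too few. Levels were compared as log2(CPM + 0.5) with exact permutation tests, two-sided, over all 40320 orders of the 8 libraries. These were 2 controls, 4 nlsYAP5SA and 2 C57BL/6 mice, exchanged without regard to group, so for a gene that differs between genotypes, as Folr1 does, r mixes that shift with the relation to Ttr. All 9 genes had a positive Pearson r, with a median of 0.65, whereas the median over all 16942 genes other than Ttr was -0.01 and 48.7% were positive. After Benjamini-Hochberg adjustment over these genes 0 were called by Pearson's r or by Spearman's coefficient. Unadjusted, 205 of the 16942 genes (1.21%) had a Pearson exact permutation p of 0.05 or less, among them 4 of the 9. The 9 had been chosen with earlier results of these data known. A lone gene could reach no adjusted p below 0.420 in this design, so the lack of calls says nothing on whether the genes moved with Ttr.

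Aqp1 followed Ttr most closely of the 9, with r = 0.96 (exact permutation p = 4.96e-05, adjusted p = 0.840, n = 8) and Spearman's coefficient = 0.98 (exact permutation p = 0.000397). Without the 2 libraries farthest from the median of Ttr, nlsYAP5SA 5 and 2, its r was 0.99 (n = 6, exact permutation p = 0.00278). Sostdc1 had r = 0.90 (n = 8, exact permutation p = 0.00236) and Spearman's coefficient = 0.79 (exact permutation p = 0.0279), and r = 0.87 without the 2 libraries (exact permutation p = 0.0597). For Kcne2 r was 0.89 (exact permutation p = 0.00141), Spearman's coefficient 0.93 (exact permutation p = 0.00223) and r without the 2 libraries 0.77 (exact permutation p = 0.0611). For these 3 genes r thus stayed at 0.77 or above without the 2 libraries, and the adjusted p was 1 for Sostdc1 and Kcne2.

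Kcnj13 had r = 0.75 (exact permutation p = 0.0300) and Spearman's coefficient = 0.71 (exact permutation p = 0.0576). Its r was 0.40 (exact permutation p = 0.453) without nlsYAP5SA 5 and 2 together, and ran from 0.59 to 0.85 when 1 library was left out. Clic6 had r = 0.65 (exact permutation p = 0.0705) with Spearman's coefficient = 0.81 (exact permutation p = 0.0218), and 0.53 without the 2 (exact permutation p = 0.200). The remaining genes were looser, with r = 0.58 and Spearman's coefficient = 0.57 for Slc4a5 (exact permutation p = 0.123 and 0.151), r = 0.51 and Spearman's coefficient = 0.45 for Otx2 (exact permutation p = 0.195 and 0.267) and r = 0.50 and Spearman's coefficient = 0.55 for Kl (exact permutation p = 0.201 and 0.171). Without the 2 libraries r was 0.53 for Slc4a5, 0.06 for Otx2 and 0.48 for Kl (exact permutation p = 0.282, 0.906 and 0.358). For Otx2 r depended on the libraries kept, at 0.86 without nlsYAP5SA 1 and 0.37 without nlsYAP5SA 2 or nlsYAP5SA 5. Folr1 had the lowest Pearson r, 0.01 (exact permutation p = 0.977), with Spearman's coefficient = 0.48 (exact permutation p = 0.243) and r = 0.44 (exact permutation p = 0.358) without the 2 libraries. Its r ran from -0.18 to 0.54 when 1 library was left out and was 0.49 on deviations from group means, and by Spearman's coefficient Otx2 was lower. The adjusted p was 1 for each of these 6 genes.

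**Figure D2:**
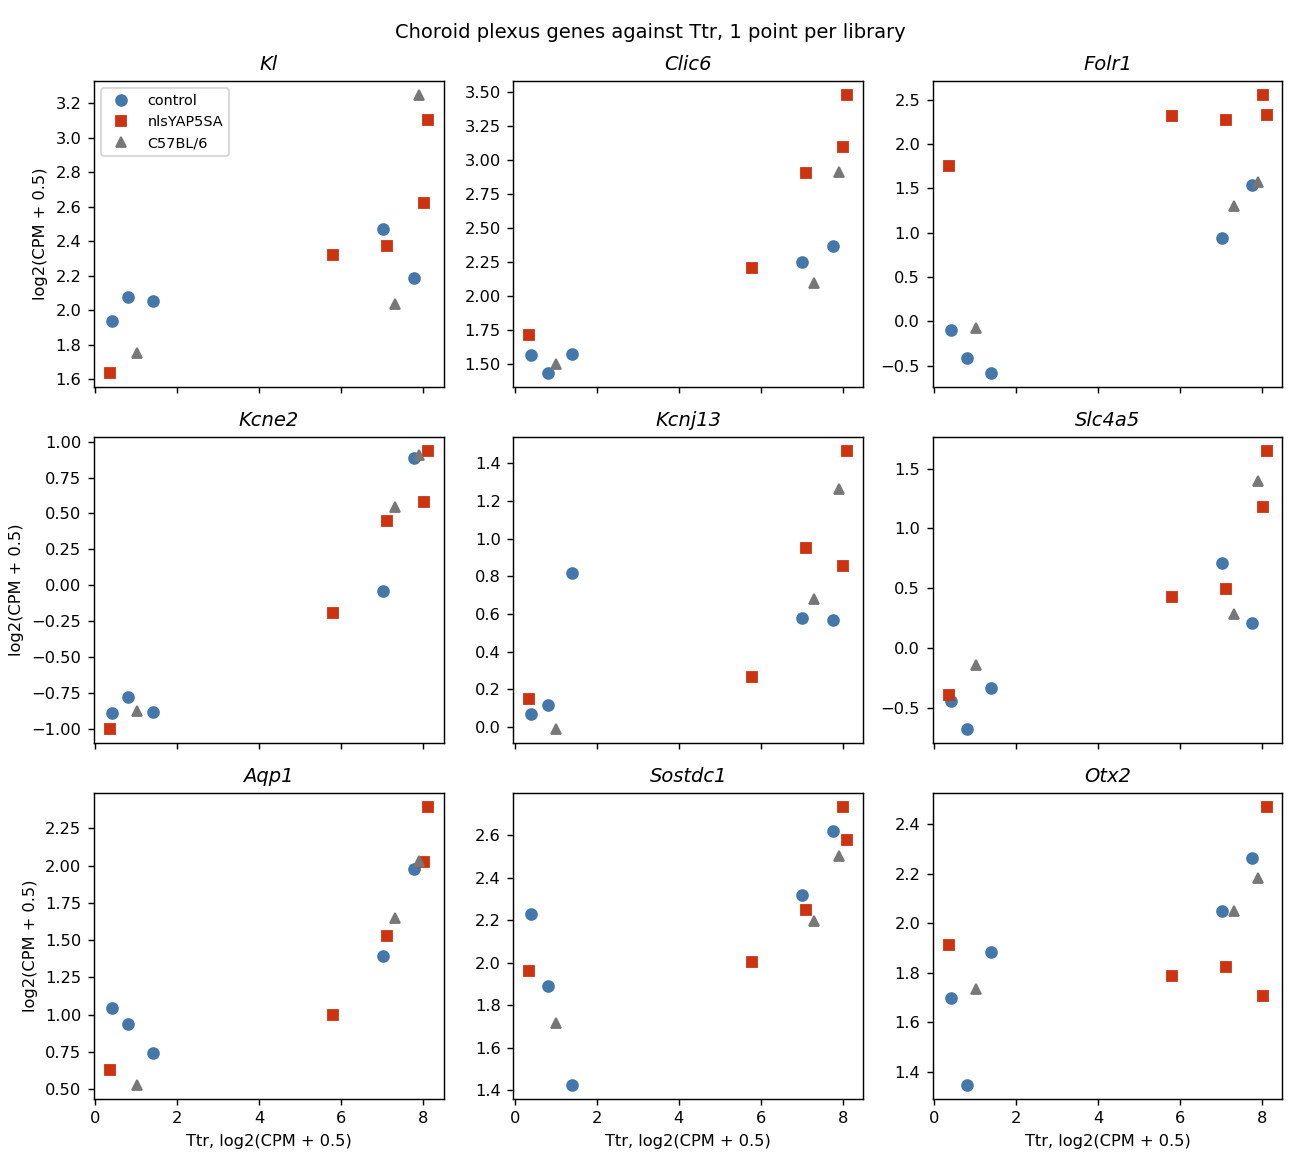
Level of each of the other 9 choroid plexus genes (vertical axis) against that of Ttr (horizontal axis), both as log2(CPM + 0.5), with 1 point per library coloured by group. The 5 libraries low in Ttr stand apart on the left, where Clic6, Kcne2 and Slc4a5 are at their lowest 5 values, and Folr1 of nlsYAP5SA 4 lies above the other 4.

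A gene that moved exactly with Ttr would keep a constant ratio to it. On the log2(CPM + 0.5) scale genes as rare as these 9 could not, because the added 0.5 CPM limits how far they fall. Whether any of them moved exactly with Ttr can therefore not be read from these ratios. Over the 13 libraries the SD of log2(CPM + 0.5) of Ttr was 3.39, and the SD of the log2 ratio to Ttr was 2.66 for Kcne2, 2.66 for Folr1, 2.78 for Slc4a5, 2.82 for Clic6 and 2.87 for Aqp1. It was 3.05 for Kl, 3.06 for Kcnj13, 3.11 for Sostdc1 and 3.22 for Otx2, with a median of 2.87 over the 9. All genes kept had a median of 3.40, a 5th to 95th percentile from 3.28 to 3.51 and a lowest value of 2.60, so each of the 9 lay below the 5th percentile. The added 0.5 CPM holds rare genes in a narrow band, so a value near 3.39 is also what a gene that hardly varies gives.

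Outside every list, the 10 genes of at least 1 CPM whose ratio to Ttr varied least were Etnppl (SD 2.82), Sult1a1 (2.90), Agt (2.96), Gm14308 (2.99), Paqr5 (2.99), Gm10273 (2.998), Fam107a (3.02), Mt2 (3.02), Mt1 (3.02) and Cdh3 (3.04), of 14677 candidates over 13 libraries. None of these 10 separated the libraries low in Ttr from the others. Agt, which encodes angiotensinogen, was at 34.6, 28.9, 29.8, 29.0 and 31.1 CPM in controls 1 to 5, at 103, 106, 89.2, 27.9 and 76.3 CPM in nlsYAP5SA 1 to 5, and at 31.3, 46.7 and 36.5 CPM in C57BL/6 1 to 3. The highest 4 values were those of nlsYAP5SA 1, 2, 3 and 5, and nlsYAP5SA 4 was lower than every control. Etnppl and Sult1a1 were likewise lowest in library 4 among nlsYAP5SA, with 0.261 CPM of Etnppl and 2.87 CPM of Sult1a1 in library 4 against 2.11 to 5.93 CPM and 15.9 to 22.3 CPM in the others. In controls these genes stayed between 0.0409 and 0.294 CPM for Etnppl and between 2.31 and 2.83 CPM for Sult1a1, whether Ttr was high or low.

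Between nlsYAP5SA and control mice edgeR called 1 of the 10 genes, Folr1, which was higher in nlsYAP5SA, and DESeq2 called Folr1 and Clic6. Mean Folr1 was 4.32 ± 0.908 CPM (SD, n = 5) in nlsYAP5SA and 0.936 ± 0.965 CPM (SD, n = 5) in controls, a 4.60-fold difference in the fit (log2 fold change 2.203, SE 0.50, 95% interval 1.22 to 3.18, edgeR adjusted p = 0.0133), and it was higher in 5 of 5 libraries than in any control. The count of edgeR, 1 of 10, was near the share of all 16315 genes tested: 1761 (10.8%) were called, 1200 (7.36%) were called higher and 1060 (6.5%) were higher with no overlap. DESeq2 called 2259 of the 16315. Called means that edgeR's quasi-likelihood test, adjusted over all genes by Benjamini and Hochberg's method, gave 0.05 or less.

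Folr1 also moved with other features of these libraries, whose part in the result was not tested beyond the following. Y-linked genes summed to between 91.0 and 129 CPM in all 5 controls, but only nlsYAP5SA 3 and 4 had them, at 130 and 135 CPM, and nlsYAP5SA 1, 2 and 5 were at 0.0942 CPM or less. Of the C57BL/6 mice, 1 and 3 had them at 119 and 143 CPM and 2 was at 0. With the Y-linked level as a covariate the log2 fold change of Folr1 was 1.92 and its adjusted p 0.147, the highest of a range from 0.000955 to 0.147 over 19 alternatives. The libraries nlsYAP5SA 3 and 4, at 4.33 and 2.87 CPM, were each above the highest control at 2.41 CPM. With the level of Ttr as a covariate the log2 fold change was 1.94 (adjusted p = 0.00450), and without the 5 libraries low in Ttr it was 1.26 (adjusted p = 0.0307); both settings were chosen after seeing the data.

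The other 9 genes were not called by edgeR, and of these Slc4a5 and Clic6 reached 0.05 before adjustment. Slc4a5 had a log2 fold change of 1.40 (SE 0.60, edgeR adjusted p = 0.172) and Clic6 one of 1.02 (SE 0.34, adjusted p = 0.0777). Ttr itself had 1.04 with an SE of 1.296 and a 95% interval from -1.496 to 3.58 (adjusted p = 0.674), with low and high libraries in both groups. Mean Ttr was 146 ± 121 CPM (SD, n = 5) in nlsYAP5SA and 70.1 ± 99.0 CPM (SD, n = 5) in controls, and these means depend on how many low libraries each held, 1 of 5 and 3 of 5. The log2 fold change was 0.86 for Kcne2, 0.53 for Kcnj13, 0.44 for Aqp1, 0.37 for Kl, 0.20 for Sostdc1 and 0.10 for Otx2, with adjusted p from 0.379 to 0.833. Leaving out single libraries moved several of these, from 0.69 to 2.15 for Ttr, from 0.49 to 2.23 for Kcne2 and from 0.13 to 0.76 for Aqp1, each lowest without nlsYAP5SA 2 and highest without control 1. Kl ran from 0.14 to 0.53 and Kcnj13 from 0.22 to 0.71, each lowest without nlsYAP5SA 2 and highest without nlsYAP5SA 4. All 10 had the higher mean in nlsYAP5SA, with a median log2 fold change of 0.69 against -0.01 over all genes. Before adjustment 3 of the 10 reached 0.05, near the share of all genes, 3984 of 16315. That direction was not kept under every setting: 5 of the 10 had a negative log2 fold change with the Y-linked covariate, and of the 9 other than Ttr 4 had one with the level of Ttr as a covariate and 3 without the libraries low in Ttr. Clic6 passed the threshold under 2 alternatives, DESeq2's test (adjusted p = 0.0196) and the fit without nlsYAP5SA 4 (adjusted p = 0.0192).

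**Figure D3:**
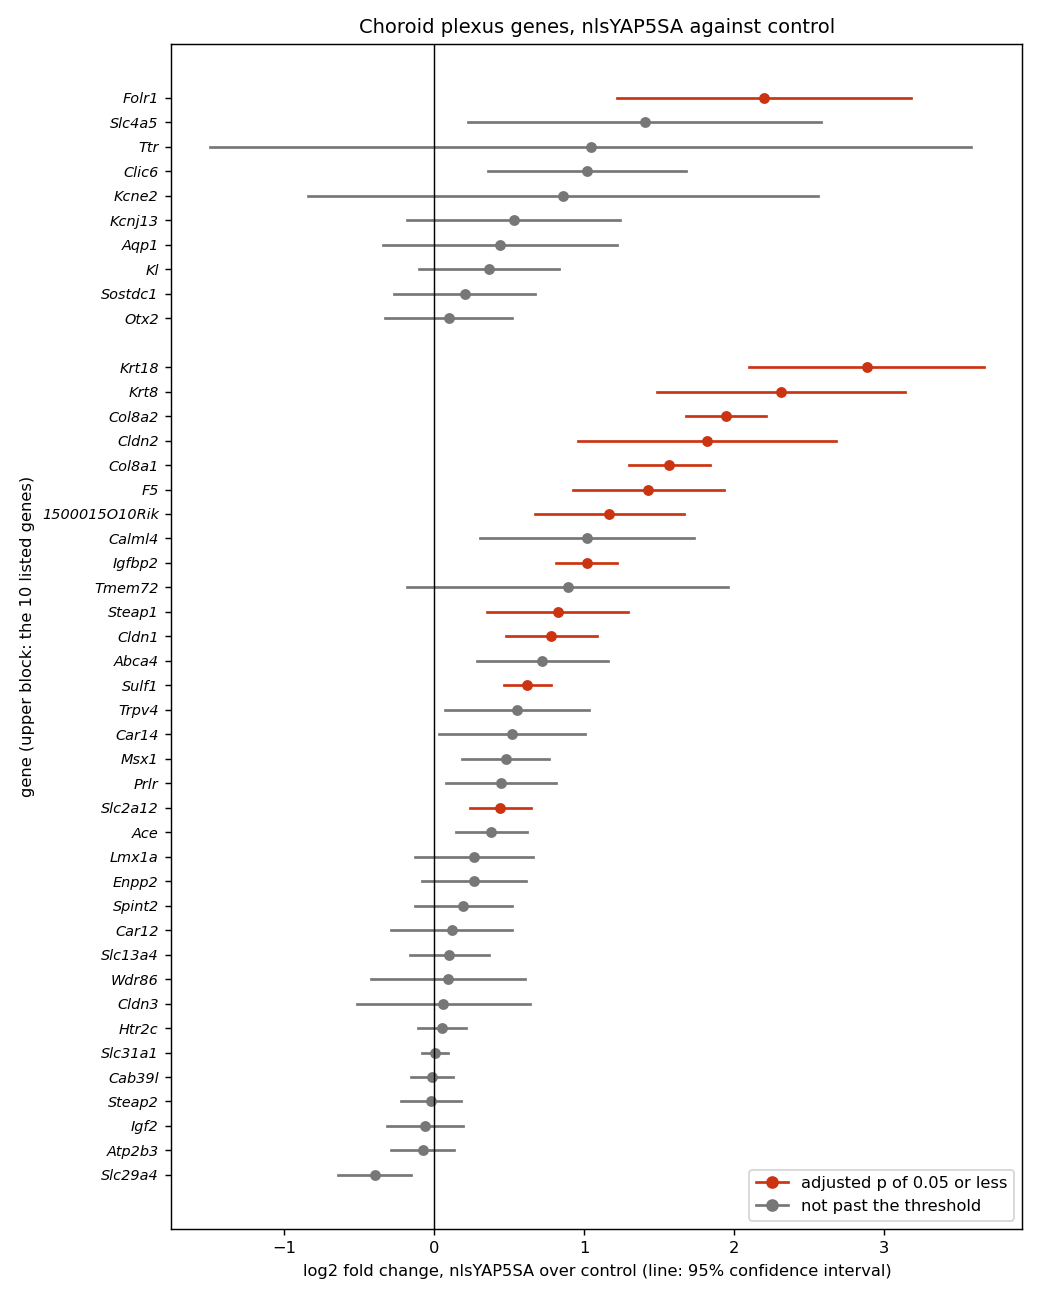
Log2 fold change of nlsYAP5SA over control on the horizontal axis, with 95% intervals, for the 10 choroid plexus genes in the upper block and 34 further genes known from the epithelium in the lower block; red marks genes called at an adjusted p of 0.05 or less. Folr1 at 2.203 is the only red gene of the upper block, the interval of Ttr runs from -1.496 to 3.58, and 12 genes of the lower block are red, all to the right of 0.

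In C57BL/6 mice against controls, which asks whether the background strain differs from mice with the silent transgene, 0 of the 10 genes were called by edgeR, with 0 reaching 0.05 before adjustment and 0 by DESeq2. Of all 16546 genes 28 (0.169%) were called, so few calls of any kind were made. Means were higher in C57BL/6 for all 10, with a median log2 fold change of 0.44 against 0.00 over all genes. Log2 fold changes ran from 0.03 for Sostdc1 to 1.20 for Slc4a5, and Ttr had 0.92 with an SE of 1.63. Leaving out 1 library gave 0.17 to 2.01 for Ttr, 0.20 to 1.74 for Slc4a5, 0.30 to 2.37 for Kcne2 and 0.35 to 1.56 for Folr1. The adjusted p was 0.9996 for each of the 10 genes, and with 3 C57BL/6 mice, 1 of them low in Ttr, the intervals were wide.

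For nlsYAP5SA against C57BL/6 mice, 0 of the 10 genes were called by edgeR, 1 had an unadjusted p of 0.05 or less and DESeq2 called 1, in both cases Folr1. Of all 16641 genes 1061 (6.38%) were called and 692 (4.16%) were called higher. Folr1 had 4.32 ± 0.908 CPM (SD, n = 5) against 1.63 ± 1.05 CPM (SD, n = 3), with no overlap, a log2 fold change of 1.38 (SE 0.41) and an edgeR adjusted p of 0.0775, within a range from 0.00831 to 0.333 over 18 alternatives. It passed the threshold with no filter (0.0451), with DESeq2 (0.00831), without C57BL/6 3 (0.0339), with the level of Ttr as a covariate (0.0186) and without the libraries low in Ttr (0.0313). Clic6 had a log2 fold change of 0.55 (SE 0.45, edgeR adjusted p = 0.534), from 0.25 to 1.08 when 1 library was left out. Ttr had one of 0.11 (SE 1.28, edgeR adjusted p = 0.972). The median over the 10 genes was 0.12, with 7 of 10 higher. The 3 comparisons share their groups pairwise, so their values stand side by side and are not independent.

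Among 36 further genes known from choroid plexus epithelium, 34 could be tested between nlsYAP5SA and controls, and edgeR called 12 higher and 0 lower, beside 7.36% of all genes called higher. In 10 of the 34 all nlsYAP5SA libraries were above all controls, beside 6.5% of all genes. The median log2 fold change was 0.46, and 19 reached 0.05 before adjustment, beside 3984 of all 16315 genes. DESeq2 called 15, beside 2259 of the 16315, and of the 15 Slc29a4 was lower (edgeR log2 fold change -0.40, adjusted p = 0.0614). The keratins Krt18 and Krt8, which are paired intermediate filaments of simple epithelia in many organs and not specific to the plexus, rose most, and keratin 18 is known from mouse ependyma too. Krt18 was at 3.29 ± 1.34 CPM (SD, n = 5) against 0.442 ± 0.228 CPM (SD, n = 5; log2 fold change 2.88, SE 0.40, edgeR adjusted p = 0.000497), and Krt8 had a log2 fold change of 2.31 (SE 0.42, adjusted p = 0.00342). The collagen VIII chains Col8a2 and Col8a1 rose by log2 fold changes of 1.95 (SE 0.14, adjusted p = 2.74e-06) and 1.57 (SE 0.14, adjusted p = 1.7e-05). Cldn2, a claudin that forms pores for cations in leaky tight junctions, rose by 1.82 (SE 0.44, adjusted p = 0.0186). The other 7 called were F5 (1.43), 1500015O10Rik (1.17), Igfbp2 (1.02), Steap1 (0.82), Cldn1 (0.78), Sulf1 (0.62) and Slc2a12 (0.44), chosen for naming after their values were seen.

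These called genes did not all share the low libraries of Ttr. Krt18 was at 4.25, 2.92, 1.21, 3.44 and 4.64 CPM in nlsYAP5SA 1 to 5 and between 0.167 and 0.695 CPM in controls, so nlsYAP5SA 4, the library lowest in Ttr, was among its high libraries. Igfbp2, an insulin-like growth factor binding protein, was at 159, 142, 116, 148 and 166 CPM in nlsYAP5SA 1 to 5 and between 62.3 and 86.5 CPM in controls, again with nlsYAP5SA 4 near the rest of its group. Cldn2 behaved otherwise: it was at 3.98, 4.94, 2.56, 1.13 and 5.20 CPM in nlsYAP5SA 1 to 5 and at 1.68, 0.626, 0.417, 0.714 and 1.61 CPM in controls 1 to 5. Its 5 lowest libraries were those lowest in Ttr, C57BL/6 1 at 0.538 CPM included, and nlsYAP5SA 4 lay inside the range of the controls. Tmem72, which is not called (log2 fold change 0.89, adjusted p = 0.349), was the other gene of the 36 with these 5 libraries as its lowest.

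Some calls in this list were lost under other settings, while the fold changes given below stayed positive. With the Y-linked level as a covariate 5 of the genes were called, and without the libraries low in Ttr 3 were, a setting in which the controls are down to 2 mice and fewer of all genes pass, 490 in place of 1761. Krt18 and Krt8 were not called without the libraries low in Ttr (log2 fold change 2.23 and 1.70, adjusted p = 0.0775 and 0.0850), and Krt8 was not called with the Y-linked covariate (1.94, adjusted p = 0.0725). Cldn2 was not called with the Y-linked covariate (log2 fold change 0.91, adjusted p = 0.447), without the libraries low in Ttr (1.33, adjusted p = 0.0646), without control 2 (1.68, adjusted p = 0.0521) or without nlsYAP5SA 5 (1.64, adjusted p = 0.0551). Steap1 kept its call only with DESeq2 size factors and without nlsYAP5SA 4, while F5, 1500015O10Rik, Cldn1 and Slc2a12 lost it with the Y-linked covariate and without the libraries low in Ttr and Sulf1 only in the latter. Col8a1 and Col8a2 were called under all 20 alternatives run for them.

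Against C57BL/6 mice 5 of 35 of these genes rose in nlsYAP5SA by edgeR, beside 4.16% of all genes called higher. By DESeq2 8 rose, and over all genes DESeq2 called 952 of 16637 higher. The following are the calls of edgeR. They were Krt18 (log2 fold change 2.77), Col8a1 (1.47), Col8a2 (1.45), Calml4 (1.16) and Igfbp2 (1.06). Col8a1, Col8a2 and Igfbp2 kept the call in 17 of 18 alternatives and Krt18 in 16, and 1 of the settings in which Krt18 lost it was that without the libraries low in Ttr (log2 fold change 2.73, adjusted p = 0.0674). Calml4, a calmodulin-like gene, had an SE of 0.28 and an adjusted p of 0.0394, and it was called in 8 of 18 alternatives, 2 of them among the 8 fits that left out a library, with an adjusted p as high as 0.181. In C57BL/6 against control mice 0 of 34 were called by edgeR and 0 by DESeq2, with 1 reaching 0.05 before adjustment.

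Pumps and carriers that secrete cerebrospinal fluid but are used by other brain cells too showed small differences. Of 14 such genes, 2 rose and 1 fell in nlsYAP5SA against controls, beside 10.8% of all genes called. Slc12a4, a potassium chloride cotransporter, rose by a log2 fold change of 0.42 (SE 0.06, edgeR adjusted p = 0.000583), and Fxyd1, a regulator of the sodium pump, by 0.42 (SE 0.12, adjusted p = 0.0385). Car2, a carbonic anhydrase, had a log2 fold change of -0.26 (SE 0.07, adjusted p = 0.0303). The calls of Fxyd1 and Car2 were held in 8 and 10 of 20 alternatives and that of Slc12a4 in 19. Against C57BL/6 mice Slc12a4 rose by 0.40 and Car2 had -0.37, calls kept in 12 and 11 of 18 alternatives and in 4 and 3 of the 8 fits that left out a library. Between C57BL/6 and control mice 0 of 14 were called by edgeR and 0 by DESeq2, with 0 reaching 0.05 before adjustment.

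Ciliated ependymal cells line the ventricles beside the plexus, and 3 of 12 of their markers rose in nlsYAP5SA against controls, beside 7.36% of all genes called higher. The 12 markers summed to 45.6, 41.0, 34.3, 28.8 and 34.1 CPM in controls 1 to 5, to 53.0, 56.1, 49.7, 50.8 and 52.0 CPM in nlsYAP5SA 1 to 5 and to 32.6, 33.1 and 43.6 CPM in C57BL/6 1 to 3. All nlsYAP5SA libraries were above all others, nlsYAP5SA 4 included. Among the controls and among the C57BL/6 mice the lowest library was low in Ttr and the highest was high in it, and a relation of this sum to Ttr was not tested. Foxj1, the regulator of motile cilia and the most abundant of the 12 per length, rose by a log2 fold change of 0.78 (SE 0.16, edgeR adjusted p = 0.00773), Ak7 by 0.85 and Spag6l by 0.32, and none of the 12 was at 0. The call of Foxj1 was lost with the Y-linked covariate (0.69, adjusted p = 0.117) and without the libraries low in Ttr (0.64, adjusted p = 0.187), and those of Ak7 and Spag6l held in 10 and 4 of 20 alternatives. The part of these markers in the rise of Folr1 and of the keratins was not tested.

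Markers of stroma gave a mixed picture. Of 12 genes of meningeal and plexus fibroblasts, 3 rose (Ogn 1.29, Aldh1a2 0.84 and Col1a2 0.62) and 2 fell (Lum -0.83 and Slc13a3 -0.68) in nlsYAP5SA against controls, beside 10.8% of all genes called. Col1a2 kept its call in 14 of 20 alternatives and Lum in 19, and both lost it with the Y-linked covariate (adjusted p = 0.355 and 0.236). Crym was the most abundant per length, none was at 0, and the sum ran from 329 to 432 CPM in the libraries low in Ttr and from 314 to 441 CPM in the others. The 4 genes of fenestrated vessels had 0 calls by edgeR and 0 by DESeq2, with 0 reaching 0.05 before adjustment, and Cd34 as their most abundant.

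Liver, another tissue that expresses Ttr, and blood were looked at for their markers. Liver markers were nearly absent: 1 of 7 was kept, Alb and Afp were not, the sum was between 0.330 and 1.39 CPM and Apoa2 was the most abundant. Of the 6 genes of red blood cells that could be tested edgeR and DESeq2 called 0, with 0 reaching 0.05 before adjustment, Hbb-bs the most abundant and a sum from 207 to 596 CPM. Neither sum was ordered by Ttr, since the libraries low and high in Ttr overlapped in both.

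Markers of brain regions were read for a difference in what was dissected. In nlsYAP5SA against controls edgeR called 0 of 10 genes of thalamus (most abundant Calb2), 0 of 8 of hypothalamus and pituitary (Pmch), 0 of 7 of striatum (Penk), 0 of 5 of cerebellum (Zic1) and 0 of 5 of midbrain and hindbrain (Slc6a3). In this order 3, 0, 1, 1 and 3 reached 0.05 before adjustment, and DESeq2 called 2 (Lef1 and Slc17a6), 0, 0, 0 and 2 (Th and Tph2). Over all 16315 genes 3984 reached 0.05 before adjustment and DESeq2 called 2259. All 5 midbrain and hindbrain genes tested had the lower mean in nlsYAP5SA, with a median log2 fold change of -0.77. Their list summed to 33.7, 27.0, 28.8, 23.0 and 27.6 CPM in controls 1 to 5, to 7.41, 20.3, 24.3, 13.9 and 22.2 CPM in nlsYAP5SA 1 to 5 and to 31.1, 32.2 and 25.7 CPM in C57BL/6 1 to 3. Library nlsYAP5SA 3 overlapped the controls and the other 4 of its group were below them, and the part of this difference in the results on the plexus genes was not tested. Atoh1 of the cerebellum and Hoxa2 and Hoxb3 of the hindbrain were at 0 in all libraries, and Gabra6 and Pcp2 of the cerebellum were too rare to be kept. Zic1 was at 44.6 to 59.9 CPM although the cerebellum had been removed, so its level cannot be read as a sign of cerebellum. Of 9 genes of neocortex and hippocampus 2 fell, Neurod6 (-0.98) and Cux2 (-0.26), beside 10.8% of all genes called either way. Neurod6 is the locus of NEX-Cre, which only the nlsYAP5SA mice carried, so its level cannot be read as a sign of what was dissected. The sums of each of these region lists overlapped between the libraries low in Ttr and the others, so none of them separated the libraries.

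Against C57BL/6 mice the same lists showed Foxj1 (0.80), Mia (1.46), Ogn (1.03), Aldh1a2 (0.76) and Plvap (0.63) higher in nlsYAP5SA and Lum (-0.98), Slc13a3 (-0.70), Col3a1 (-0.86) and Neurod6 (-0.95) lower, each called by edgeR, beside 6.38% of all genes called. Of the 18 alternatives Foxj1, Ogn and Neurod6 kept the call in 17, Aldh1a2 in 16, Slc13a3 and Plvap in 14, Mia in 11 and Lum and Col3a1 in 10. Of the 8 fits that left out a library, Mia and Col3a1 kept it in 3 and Lum in 2. In C57BL/6 against control mice edgeR called 0 genes of the marker lists described here, with 4 reaching 0.05 before adjustment, and DESeq2 called 1, Plvap.

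Promoter windows of 300 bases were available from RefSeq (GRCm38.p6) for 6 of the 10 genes, Kl, Kcne2, Kcnj13, Slc4a5, Aqp1 and Otx2, in 10 windows, and not for Ttr, Clic6, Folr1 and Sostdc1. They were searched on both strands for TAATCC, the motif read by OTX2 (GGATTA on the other strand), and CATTCC, the motif read by TEAD factors, the partners of YAP1 (GGAATG on the other strand). TAATCC was found in 1 of the 10 windows, at position -211 of a window of Otx2, and in 2320 of 32851 windows of all genes (7.06%). CATTCC was found in 1, at position -19 of Kcnj13, and in 4817 windows (14.7%). A match is a description of letters, not a binding site. The bases upstream of the start of 2 genes are shown, Kcne2 because it shared all 5 low libraries of Ttr, from chr16:92292139-92292388 on the forward strand, and Kcnj13 because it holds the TEAD motif, in capitals, from chr1:87394730-87394979 on the reverse strand.
Kcne2: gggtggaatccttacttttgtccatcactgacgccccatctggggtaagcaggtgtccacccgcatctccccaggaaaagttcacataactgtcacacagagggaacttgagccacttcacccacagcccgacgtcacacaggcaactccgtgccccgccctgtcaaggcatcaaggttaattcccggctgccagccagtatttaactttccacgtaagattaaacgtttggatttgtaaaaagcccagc
Kcnj13: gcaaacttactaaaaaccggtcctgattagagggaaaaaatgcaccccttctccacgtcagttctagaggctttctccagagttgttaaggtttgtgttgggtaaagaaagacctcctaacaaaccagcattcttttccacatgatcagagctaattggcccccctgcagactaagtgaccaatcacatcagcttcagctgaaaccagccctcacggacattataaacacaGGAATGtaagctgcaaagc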

How the data were processed

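The authors trimmed reads with cutadapt 1.5, aligned them to GRCm38 with STAR (its version differs between the labels and the paper), handled alignments with SAMtools 1.8 and deposited RSEM 1.3.0 estimated counts per gene, and their notes also name DESeq2. Estimated counts are not whole where a read is shared among similar genes (12.4 to 13.3% of the genes of the table in each library), and the strand setting was not stated. Libraries were made with the KAPA mRNA HyperPrep kit.

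Counts were rounded and tested with edgeR 4.0.16 (quasi-likelihood, TMM, filterByExpr with minimum counts of 10 and 15 in total, two-sided) in R 4.3.3, using only the 2 groups compared. The edgeR p-values set a difference between groups against the spread between mice within them. They treat the mice as independent, although littermates shared a mating that was not given per mouse. Standard errors are the log2 fold change over the root of F. Alternatives included DESeq2 1.42.0, other filters and scalings, covariates and leaving out each library. The alternatives that use the level of Ttr were chosen after seeing the data. The fits were tested on simulated data. Levels were compared as log2(CPM + 0.5), TPM used the union of exons of GENCODE M21, and permutation tests used scipy 1.17.1 with numpy 2.4.6, pandas 2.3.3, matplotlib 3.10.9 and Python 3.11.15. Correlations were exact within the 8 libraries above the largest gap in Ttr.

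The 10 genes and the gene lists were chosen with earlier results of these data known. Named are the 10 genes, in each comparison the 5 called genes each way with the largest log2 fold change among further epithelial genes and among carriers, called genes and the most abundant gene of each marker list described, and the 10 genes of at least 1 CPM outside all lists with the least variable ratio to Ttr.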

Additional observations from a re-analysis of the deposited data

Results flagged for a closer look

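In groups of 5 libraries, 78 sets of values were searched for a library far from the other 4 of its group, and 5 were found, where chance gives about 1 in 20. The C57BL/6 group of 3 was not searched. Otx2 was at 5.04 CPM in nlsYAP5SA 2, with the other 4 between 2.76 and 3.26 CPM. Steap1 was at 0.313 CPM in control 2, with the others between 0.425 and 0.462 CPM. Col8a1 was at 21.6 CPM in nlsYAP5SA 3, with the others between 33.1 and 37.0 CPM, and Sulf1 in the same library was at 20.9 CPM, with the others between 26.3 and 27.9 CPM. The summed markers of hypothalamus and pituitary were at 34.3 CPM in nlsYAP5SA 1, with the others between 24.0 and 26.1 CPM.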

How the results depend on the processing

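Each result was recomputed with other scalings, filters, tests, covariates and samples, and where a value below changed, the cause was not tested unless fewer samples or genes give it. Each scaling moved the median log2 fold change of all genes by less than 0.1. Called among the 10 genes for nlsYAP5SA against control were 0 with at least 10 counts in every sample (Folr1 is then not tested), 2 with DESeq2's test, 0 with the Y-linked covariate, and 1 to 2 leaving out a library (2 without nlsYAP5SA 4, Clic6 added). Against C57BL/6 the count was 1 with no filter, with DESeq2, with the level of Ttr as covariate and without the libraries low in Ttr, and 0 to 1 leaving out a library (1 without C57BL/6 3).

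Of the further epithelial genes, 5 were called against control with the Y-linked covariate and 3 without the libraries low in Ttr. Against C57BL/6 there were 8 with DESeq2, 3 without the libraries low in Ttr, 0 with the replicate block, and 4 to 8 leaving out a library. Over all genes, nlsYAP5SA against control gave 554 with the Y-linked covariate and 490 without the libraries low in Ttr. C57BL/6 against control gave 16 with at least 10 counts in every sample, 59 with DESeq2, 44 with all 13 samples in 1 fit, 15 with the replicate block and 4 without the libraries low in Ttr. The nlsYAP5SA against C57BL/6 count was 1596 with DESeq2, 26 with the replicate block, 338 without the libraries low in Ttr, and 401 to 1757 leaving out a library (636, 645 and 509 without nlsYAP5SA 1, 2 and 5, and 401, 581 and 1757 without C57BL/6 1, 2 and 3).

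Log2 fold changes that changed sign were all of genes not called. For nlsYAP5SA against control they were, with the Y-linked covariate, -0.029 for Ttr, -0.090 for Kl, -0.18 for Aqp1, -0.051 for Sostdc1 and -0.026 for Otx2. With the level of Ttr as covariate they were -0.10 for Kcne2, -0.065 for Aqp1, -0.017 for Sostdc1 and -0.034 for Otx2, and without the libraries low in Ttr -0.033 for Kcne2, -0.082 for Sostdc1 and -0.22 for Otx2. Leaving out a library gave -0.081 to 0.24 for Otx2. For C57BL/6 against control they were -0.12 for Aqp1, -0.17 for Sostdc1 and -0.010 for Otx2 with the level of Ttr, -0.13 for Sostdc1 and -0.042 for Otx2 without the libraries low in Ttr, and -0.12 for Sostdc1 with the replicate block. Leaving out a library gave -0.31 to 0.68 for Kl, -0.087 to 0.76 for Clic6, -0.15 to 0.79 for Kcnj13, -0.14 to 0.68 for Aqp1 and -0.22 to 0.23 for Sostdc1.

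For nlsYAP5SA against C57BL/6 they were -0.36 for Ttr, -0.15 for Slc4a5 and -0.11 for Aqp1 with the Y-linked covariate, -0.090 for Kcnj13 and -0.043 for Aqp1 without the libraries low in Ttr, and 0.38 for Kl, 0.70 for Kcne2 and 0.0044 for Otx2 with the replicate block. Leaving out a library gave -0.46 to 0.85 for Ttr, -0.32 to 0.65 for Kl, -0.69 to 0.54 for Kcne2, -0.27 to 0.65 for Kcnj13, -0.25 to 1.17 for Slc4a5, -0.25 to 0.56 for Aqp1, -0.035 to 0.40 for Sostdc1 and -0.24 to 0.063 for Otx2. Of the correlations with Ttr, that of Folr1 gave -0.18 to 0.54.

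Libraries of the same number had correlations, across genes, of deviations from group means from -0.31 to 0.31 between nlsYAP5SA and control, so the numbers were not taken as pairs, and with the replicate block Folr1 had a log2 fold change of 2.49 (adjusted p = 0.00766) in that comparison, where 1239 genes were called. Depth limits Kcne2 and Slc4a5 most, since libraries low in Ttr held at most 2 and 9 estimated counts of them.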
